A study of Macaca mulatta with 38 samples.

Results

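This account follows 8 genes of the brain's extracellular and pericellular matrix in cultured neural stem cells from rhesus macaque fetal cortex. The 8 genes are the lecticans NCAN (neurocan), BCAN (brevican), VCAN (versican) and ACAN (aggrecan), the link protein HAPLN1, the cross-linker TNR (tenascin-R), and the membrane proteoglycans CSPG4 (NG2) and CSPG5 (neuroglycan C). They were taken by gene symbol from a count table of 34619 genes, and all 8 were found there and passed the filter on low counts. Of the table's genes 20794 passed that filter.

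Lecticans are chondroitin sulfate proteoglycans that bind hyaluronan at one end and tenascins at the other, and link proteins hold them on the hyaluronan chain. In the developing brain this mesh is loose and rich in versican and neurocan. In mature cortex brevican, aggrecan, tenascin-R and HAPLN1 condense around some neurons, mostly parvalbumin interneurons, as perineuronal nets. CSPG4 is instead a transmembrane proteoglycan known from oligodendrocyte precursors and from pericytes, and CSPG5 is a transmembrane proteoglycan of neurons and glia.

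The cultures formed 4 series, named by embryonic day and cortical region: E77 Frontal, E77 Occipital, E42 Anterior and E42 Posterior. All were wild type, and all were plated on polyornithine and fibronectin at 5% oxygen. Cells received FGF2 daily for 5 days, then NeuroBasal medium with B27, BDNF and NT-3 without FGF2. Libraries of the stem phase are from days in vitro 1, 3 and 5, those of the transition from days 6, 7 and 8, and those of the terminal phase from days 11, 14 and 17, with day 20 at E77 only. There was 1 poly(A) RNA-seq library per series and day, 38 in all (20 at E77 and 18 at E42), each made from 2 wells. The days of a phase therefore served as its replicates in phase comparisons, and the 4 series as those of a day in single-day comparisons. Ages and regions were compared with day as a block. Each fit held all 38 libraries and shared their spread, so p-values rest on days and series. They do not measure the spread between repeated cultures of 1 age and region. Age and region cannot be told apart from differences between fetuses, dissections or runs of culture. Total counts ran from 20149635 to 56363300 per library, with a median of 27597365.5.

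Levels below are the deposited RPKM values, which are per gene length and so can be set side by side between genes. Log2 fold changes come from the counts (edgeR quasi-likelihood tests, adjusted by Benjamini-Hochberg over 20794 genes, called under 0.05) and carry the standard error (SE) of the fit. In bulk RNA, fewer cells of a type and less RNA per cell cannot be told apart.

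NCAN had the highest level of the 8 genes in every library except E42 Anterior on days 1 and 3, where VCAN did. Over the 38 libraries NCAN ranged from 41.8 to 1104 RPKM (median 368), BCAN from 25.1 to 448 RPKM (median 97.1) and VCAN from 38.8 to 148 RPKM (median 96.0). CSPG5 stood between 8.99 and 60.8 RPKM. TNR spanned 0.311 to 90.9 RPKM, CSPG4 0.701 to 33.1 RPKM and ACAN 0.0236 to 47.2 RPKM. HAPLN1 was low everywhere, between 0.0552 and 2.69 RPKM. The lowest values rest on few reads: ACAN had from 6 to 12527 reads per library and HAPLN1 from 11 to 362.

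**Figure D1:**
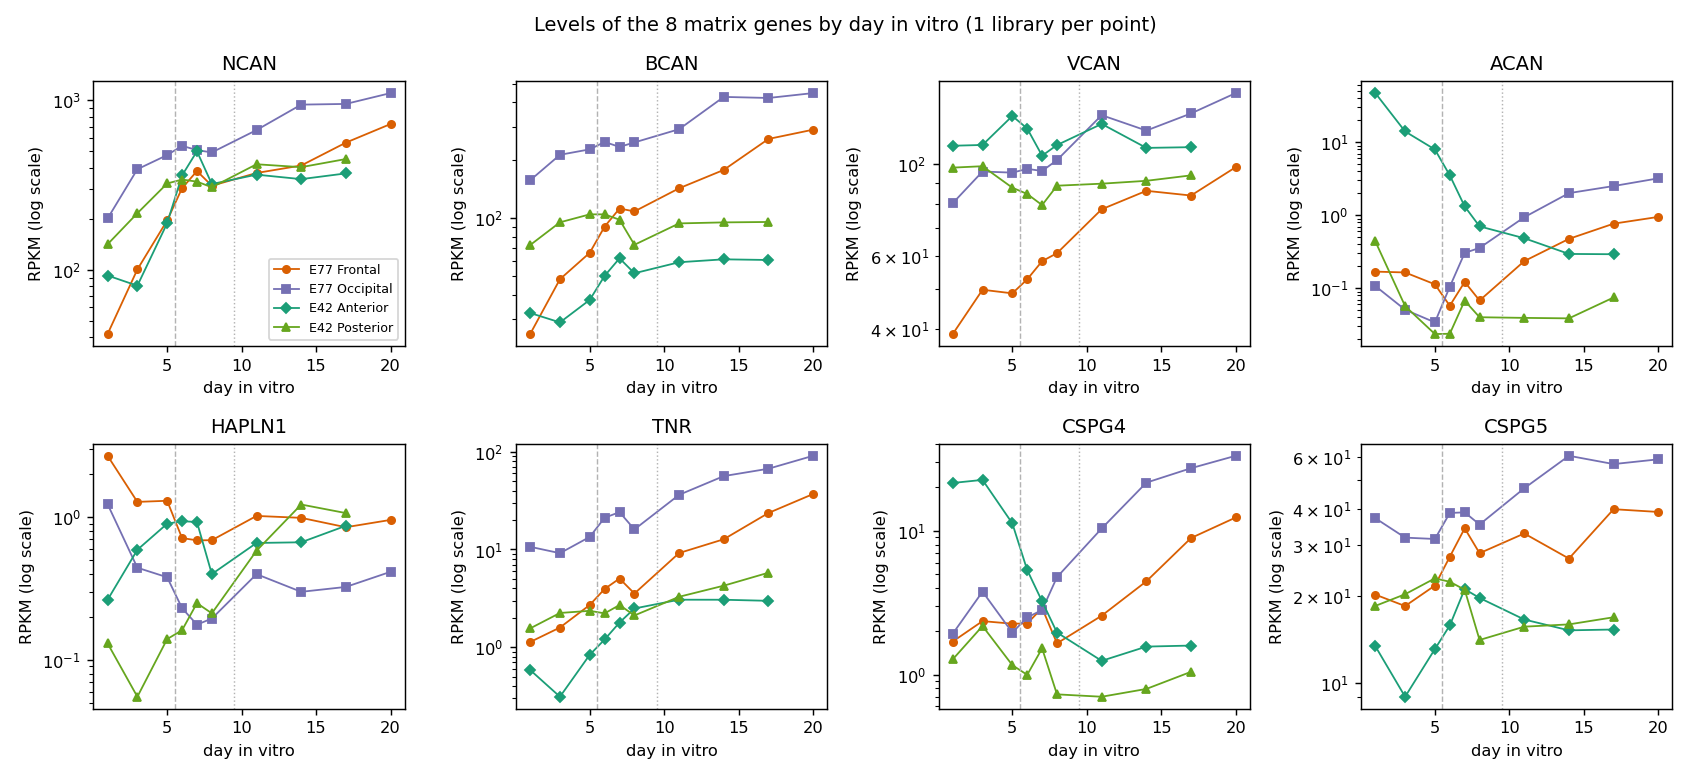
RPKM (log scale) of the 8 genes against day in vitro in the E77 Frontal, E77 Occipital, E42 Anterior and E42 Posterior series, with 1 library per point. The dashed line marks the end of FGF2 after day 5 and the dotted line the start of the terminal phase. TNR ends between 2.98 and 90.9 RPKM in the 4 series, and ACAN runs down in E42 Anterior while it runs up late in both E77 series.

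The first question was how the matrix genes changed with differentiation. Averaged over the 4 series, 5 of the 8 genes were higher in the terminal than in the stem phase and 0 were lower, while 62.4% of all tested genes were called (31.9% higher and 30.4% lower). TNR rose most, by 2.39 ± 0.21 on the log2 scale (adjusted p = 6.8e-11), followed by NCAN (1.52 ± 0.19, adjusted p = 6.0e-08) and BCAN (1.05 ± 0.13, adjusted p = 1.9e-08). CSPG5 (0.41 ± 0.08, adjusted p = 1.0e-04) and VCAN (0.36 ± 0.05, adjusted p = 1.3e-06) rose less. The median log2 fold change was 0.41 over the 8 genes and 0.00 over all tested genes. ACAN (-0.14 ± 0.43, adjusted p = 0.794), CSPG4 (0.12 ± 0.23, adjusted p = 0.659) and HAPLN1 (0.41 ± 0.20, adjusted p = 0.07) did not pass.

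These averages join series in which ACAN and CSPG4 were called in opposite directions. Without E42 Anterior, ACAN was higher in the terminal phase, by 1.84 on the log2 scale (adjusted p = 0.0044), and CSPG4 by 1.40 (adjusted p = 5.6e-05). HAPLN1 passed when any of 3 stem libraries was left out (E42 Anterior day 5, E77 Frontal day 1 or E77 Occipital day 1), with log2 fold changes of 0.51 to 0.58. The series are therefore given one by one.

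In both E77 series 7 of the 8 genes were higher in the terminal phase and 0 were lower. The share of all tested genes called was 43.2% in E77 Frontal (22.5% higher and 20.7% lower) and 41.2% in E77 Occipital (21.6% higher and 19.6% lower). At E42 the same comparison called 3 genes higher and 2 lower in the Anterior series, against 34.1% of all tested genes (17.9% higher and 16.2% lower), and 2 higher and 0 lower in the Posterior series, against 39.4% (21.5% higher and 17.8% lower). TNR was the one member called higher in all 4 series. The 5 neuronal markers tested rose in each series, summing to between 309 and 709 RPKM in terminal and between 41.1 and 247 RPKM in stem libraries, with none at 0 counts throughout a group, and their part in these changes was not tested.

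**Figure D2:**
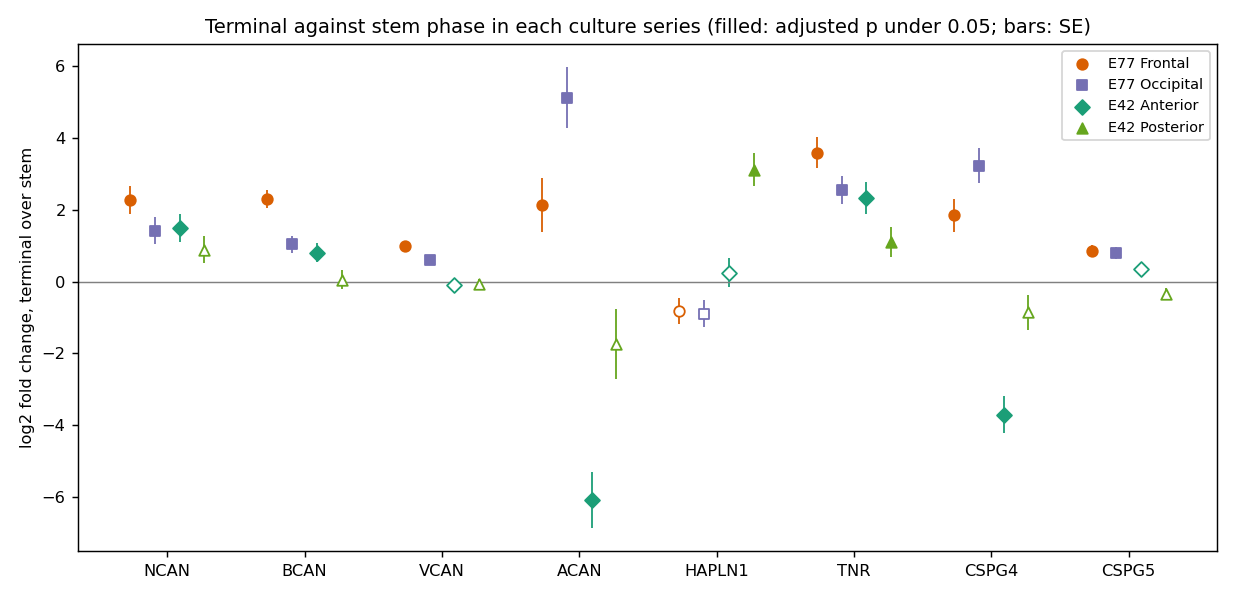
Log2 fold change of the terminal over the stem phase for each gene in the 4 series, with the SE as bars and filled symbols where the adjusted p was under 0.05. NCAN, BCAN and TNR lie above 0 in every series, while ACAN and CSPG4 lie above 0 at E77 and below 0 at E42, reaching -6.09 and -3.72 in E42 Anterior.

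NCAN, the secreted lectican typical of the growing brain, had its lowest level on day 1 or 3 in every series. The E77 Frontal series had 41.8, 101 and 196 RPKM on the stem days, 303, 383 and 314 RPKM in the transition, and 373, 413, 563 and 725 RPKM in the terminal phase. E77 Occipital cultures had 201, 393 and 476 RPKM, then 539.5, 509 and 493 RPKM, and finally 668, 944, 953 and 1104 RPKM. In both, each terminal library lay above each stem library. The E42 Anterior series had 92.6, 80.7 and 189 RPKM in the stem phase, 361, 501 and 321 RPKM in the transition, and 365, 343 and 371 RPKM in the terminal phase. E42 Posterior cultures had 142, 216 and 323 RPKM, then 341, 332 and 307 RPKM, and then 419.9, 404 and 451 RPKM. In E42 Anterior the transition and terminal days overlapped, and again no terminal library fell within the stem range at either region.

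The terminal over stem fold change of NCAN was 2.27 ± 0.39 in E77 Frontal (log2, adjusted p = 2.7e-05), 1.42 ± 0.37 in E77 Occipital (adjusted p = 0.00312) and 1.502 ± 0.39 in E42 Anterior (adjusted p = 0.0036). Without the day 5 library the E77 Frontal value was 2.997. In E42 Posterior it was 0.89 ± 0.39 and did not pass (adjusted p = 0.0672), but it passed without the day 5 library (1.19, adjusted p = 0.0307). Part of the climb came before FGF2 was removed. NCAN was the one member called between day 5 and day 1 over the 4 series (log2 1.36 ± 0.28, adjusted p = 0.0015), where 14.5% of all tested genes were called.

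BCAN, the lectican most typical of adult brain, had its highest values in E77 Occipital. In E77 Occipital it had 158, 214 and 228 RPKM on the stem days, 249, 235 and 248 RPKM in the transition, and 291, 428, 422 and 448 RPKM in the terminal phase. The E77 Frontal series had 25.1, 48.3 and 66.3 RPKM, then 90.7, 113 and 109 RPKM, and then 143, 179, 259 and 289 RPKM. Terminal libraries lay above all stem libraries in both E77 series. E42 Anterior cultures had 32.3, 28.8 and 37.7 RPKM, 50.3, 62.1 and 51.9 RPKM, and 59.2, 61.3 and 60.8 RPKM. The E42 Posterior series had 72.7, 95.4 and 105 RPKM, 105, 98.4 and 72.9 RPKM, and 94.2, 95.4 and 95.8 RPKM. There the terminal libraries sat inside the stem range.

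BCAN rose in the terminal phase by 2.30 ± 0.26 in E77 Frontal (log2, adjusted p = 6.3e-08), 1.04 ± 0.24 in E77 Occipital (adjusted p = 0.00108) and 0.80 ± 0.26 in E42 Anterior (adjusted p = 0.0152). The E42 Anterior call was lost without stem day 1 or stem day 3 (0.76 and 0.68, highest adjusted p 0.0802). In E42 Posterior the change was 0.06 ± 0.25 (adjusted p = 0.887).

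VCAN, the lectican of early and migratory matrix, varied least among the 4 lecticans. E77 Frontal cultures had 38.8, 49.7 and 48.7 RPKM in the stem phase, 52.6, 58.2 and 60.9 RPKM in the transition, and 77.7, 86.1, 83.9 and 98.2 RPKM in the terminal phase. The E77 Occipital series had 80.4, 95.8 and 95.2 RPKM, then 97.2, 96.1 and 102 RPKM, and then 131, 120.3, 132 and 148 RPKM. VCAN rose in the terminal phase by 0.995 ± 0.11 in E77 Frontal (log2, adjusted p = 3.6e-08) and 0.60 ± 0.11 in E77 Occipital (adjusted p = 4.7e-05). At E42 the terminal libraries fell inside the stem range in both series. E42 Anterior averaged 115 ± 8.87 RPKM in the terminal and 117 ± 11.3 RPKM in the stem phase, and E42 Posterior 91.5 ± 2.15 RPKM and 94.7 ± 6.20 RPKM (SD, n = 3 each), with log2 changes of -0.11 ± 0.11 (adjusted p = 0.505) and -0.06 ± 0.11 (adjusted p = 0.728).

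The make-up of the lectican transcripts, as shares of their summed RPKM, moved toward NCAN in all 4 series. In E77 Frontal NCAN held 39.5% on day 1, 63.0% on day 5 and 65.1% on day 20, and VCAN held 36.7%, 15.7% and 8.82%. The E77 Occipital series had 45.8%, 59.5% and 64.8% for NCAN, and 18.3%, 11.9% and 8.70% for VCAN. In E42 Anterior NCAN held 32.8% on day 1, 51.7% on day 5 and 68.5% on day 17, against 39.1%, 35.8% and 20.3% for VCAN. E42 Posterior gave NCAN 45.3%, 62.7% and 70.4%, and VCAN 31.3%, 16.97% and 14.6%. VCAN was the leading lectican in the E42 Anterior libraries of days 1 and 3, and NCAN led in the other 36 libraries. BCAN kept a larger share at E77 late in culture (26.0% in Frontal and 26.3% in Occipital on day 20) than at E42 (11.2% in Anterior and 15.0% in Posterior on day 17). The summed lectican level itself was 106 RPKM on day 1 and 1113 RPKM on day 20 in E77 Frontal, and 439 and 1703 RPKM in E77 Occipital. It was 283 RPKM on day 1 and 542 RPKM on day 17 in E42 Anterior, and 313 and 641 RPKM in E42 Posterior. These shares are a description and were not tested.

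**Figure D3:**
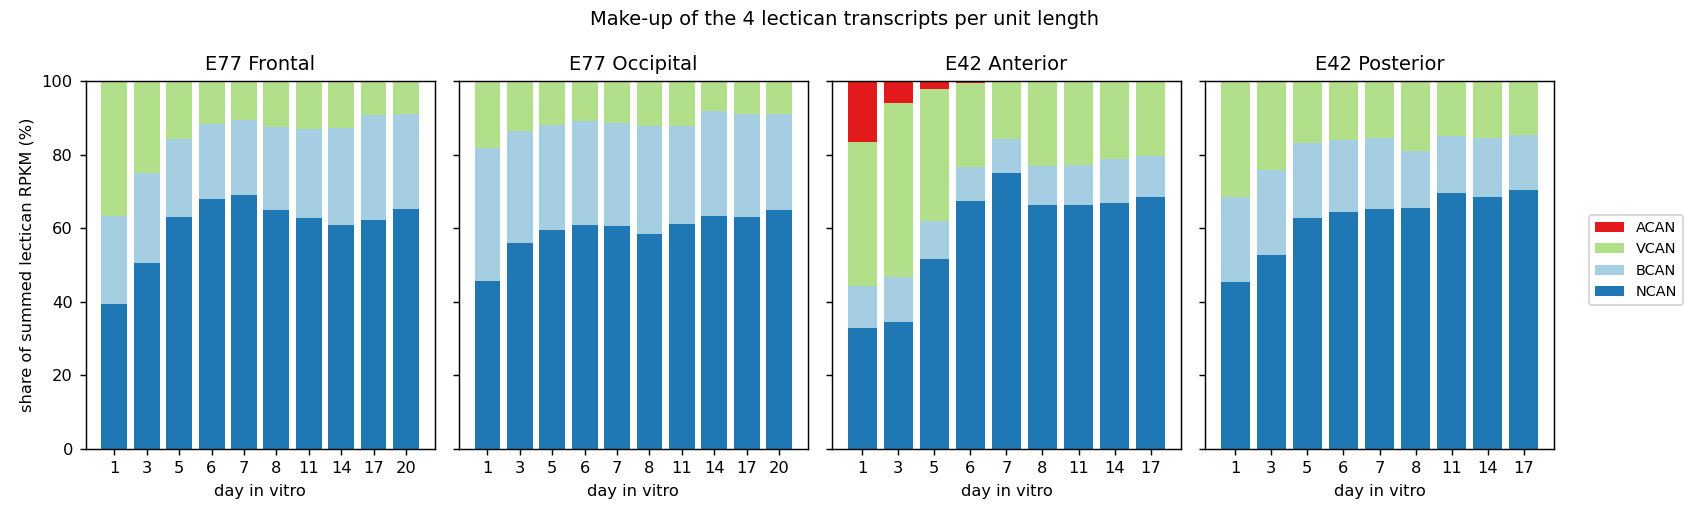
Share of the summed RPKM of the 4 lecticans (percent) held by NCAN, BCAN, VCAN and ACAN on each day in vitro, 1 bar per library. NCAN reaches more than 50% of the bar by day 5 in every series, and ACAN is visible in E42 Anterior only, with 16.7% on day 1.

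ACAN, the lectican with the most chondroitin sulfate chains and the core proteoglycan of cartilage and of mature nets, fell in E42 Anterior and rose in both E77 series. In E42 Anterior it had 47.2, 14.1 and 7.97 RPKM on the stem days, 3.53, 1.32 and 0.705 RPKM in the transition, and 0.485, 0.295 and 0.293 RPKM in the terminal phase. Each of these 9 libraries was lower than the one before it. The E77 Occipital series had 0.107, 0.0508 and 0.0341 RPKM, then 0.105, 0.305 and 0.357 RPKM, and then 0.940, 2.01, 2.52 and 3.21 RPKM. E77 Frontal cultures had 0.169, 0.165 and 0.113 RPKM, 0.0576, 0.122 and 0.0680 RPKM, and 0.235, 0.475, 0.768 and 0.950 RPKM. Both E77 series had every terminal library above every stem library, at levels far below those of the other lecticans. E42 Posterior stood at 0.440 RPKM on day 1 and between 0.0236 and 0.0748 RPKM on every later day.

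The terminal over stem fold change of ACAN was 2.13 ± 0.76 in E77 Frontal (log2, adjusted p = 0.0247) and 5.13 ± 0.85 in E77 Occipital (adjusted p = 2.2e-05). It was -6.09 ± 0.78 in E42 Anterior (adjusted p = 1.4e-06) and -1.75 ± 0.98 in E42 Posterior (adjusted p = 0.163). The E77 Frontal call was lost when stem day 1, 3 or 5 or terminal day 20 was left out (log2 1.78 to 2.25, highest adjusted p 0.0788). Without day 1 the value was 5.73 in E77 Occipital and -5.05 in E42 Anterior, and both kept their call. In E42 Posterior the sign turned without day 1 (0.35, adjusted p = 0.855).

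CSPG4, too, fell in E42 Anterior and rose in both E77 series. E42 Anterior cultures had 21.5, 22.5 and 11.2 RPKM of CSPG4 in the stem phase, 5.32, 3.23 and 1.96 RPKM in the transition, and 1.25, 1.56 and 1.59 RPKM in the terminal phase. In E77 Occipital it had 1.92, 3.77 and 1.96 RPKM, then 2.50, 2.81 and 4.75 RPKM, and then 10.4, 21.6, 27.2 and 33.1 RPKM. The E77 Frontal series had 1.70, 2.35 and 2.26 RPKM, 2.26, 2.90 and 1.65 RPKM, and 2.56, 4.45, 8.89 and 12.3 RPKM. Terminal libraries lay above the stem range in both E77 series and below it in E42 Anterior. E42 Posterior stayed between 0.701 and 2.17 RPKM.

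CSPG4 rose in the terminal phase by 3.22 ± 0.49 in E77 Occipital (log2, adjusted p = 6.4e-06) and by 1.85 ± 0.46 in E77 Frontal (adjusted p = 0.00192). It fell by 3.72 ± 0.51 in E42 Anterior (adjusted p = 3.4e-06). In E42 Posterior the change was -0.86 ± 0.49 (adjusted p = 0.174), with terminal values of 0.701 to 1.04 RPKM against stem values of 1.16 to 2.17 RPKM. This fall passed in edgeR with only the libraries compared in the fit (-0.89, adjusted p = 0.0257).

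Markers of the cell types that CSPG4 is known from moved in the same libraries. SOX10, a transcription factor of the oligodendrocyte lineage, had 17.5, 53.2, 67.9 and 85.7 RPKM in the terminal phase of E77 Occipital, against 0.257, 0.806 and 3.58 RPKM in its stem phase. In E77 Frontal SOX10 had 5.36, 13.1, 27.6 and 34.2 RPKM in the terminal phase, against 1.34, 1.11 and 1.34 RPKM in the stem phase. Of the 8 oligodendrocyte lineage markers 6 rose in each E77 series, and in E42 Anterior 0 rose and 4 fell. Their summed level was 113 to 383 RPKM in the terminal and 90.0 to 121 RPKM in the stem phase of E77 Frontal, and 357 to 1033 RPKM and 218 to 262 RPKM in E77 Occipital. In E42 Anterior the terminal sums, 74.6 to 95.8 RPKM, lay inside the stem range of 51.1 to 115 RPKM. None of these 8 markers was at 0 counts throughout any group.

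In E42 Anterior the pericyte and mural markers fell as well, as did ACAN and CSPG4. PDGFRB, a pericyte receptor, had 9.48, 12.8 and 11.9 RPKM in the terminal phase, against 82.9, 128 and 84.3 RPKM in the stem phase. Of 6 pericyte and mural markers 5 fell there, and their summed level was 32.3 to 53.4 RPKM in the terminal and 184 to 1524 RPKM in the stem phase. The other series held between 9.40 and 40.1 RPKM of these markers. The 5 fibroblast markers summed to between 2840 and 6984 RPKM in every E42 Anterior library and to at most 56.0 RPKM in every other library. The part of these cell types in the ACAN and CSPG4 values was not tested.

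**Figure D4:**
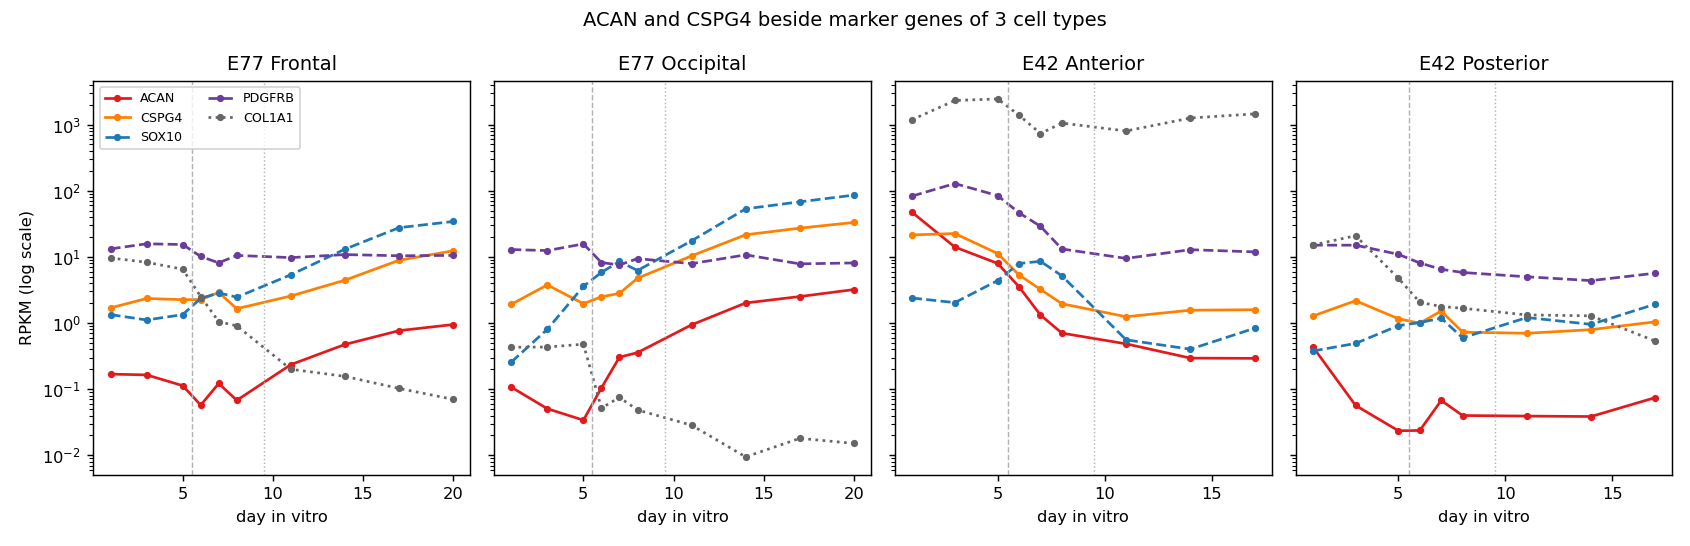
RPKM (log scale) of ACAN and CSPG4 against day in vitro in each series, beside SOX10 (oligodendrocyte lineage), PDGFRB (pericytes) and COL1A1 (fibroblasts), 1 library per point. In both E77 panels ACAN and CSPG4 climb late, as does SOX10, which ends at 34.2 and 85.7 RPKM, and in the E42 Anterior panel they run down, as does PDGFRB, while COL1A1 stays between 731 and 2435 RPKM.

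TNR, which cross-links lecticans and is made by oligodendrocytes and some neurons, had the steepest common rise. In E77 Occipital it had 10.7, 9.16 and 13.4 RPKM in the stem phase, 21.1, 24.1 and 16.0 RPKM in the transition, and 36.2, 56.4, 67.0 and 90.9 RPKM in the terminal phase. The E77 Frontal series had 1.13, 1.59 and 2.70 RPKM, then 3.94, 5.04 and 3.54 RPKM, and then 9.19, 12.7, 23.6 and 37.0 RPKM. Each phase lay above the one before it without overlap in both series. E42 Anterior had 0.584, 0.311 and 0.836 RPKM, 1.20, 1.79 and 2.49 RPKM, and 3.06, 3.06 and 2.98 RPKM. In E42 Posterior the values were 1.56, 2.24 and 2.35 RPKM, 2.22, 2.70 and 2.11 RPKM, and 3.28, 4.26 and 5.78 RPKM. Terminal libraries again lay above all stem libraries, so the E42 series shared the direction at a lower level.

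TNR rose in the terminal phase by 3.60 ± 0.43 in E77 Frontal (log2, adjusted p = 2.3e-07) and 2.55 ± 0.40 in E77 Occipital (adjusted p = 1.1e-05). The rise was 2.32 ± 0.44 in E42 Anterior (adjusted p = 1.8e-04) and 1.11 ± 0.41 in E42 Posterior (adjusted p = 0.0333). The E42 Posterior call was lost without stem day 1, 3 or 5 or terminal day 14 or 17 (log2 0.87 to 1.16, highest adjusted p 0.154). An uncharacterised coding gene and a long non-coding RNA overlap TNR in the RefSeq annotation of assembly T2T-MMU8v2.0. The libraries mark strand but the strand setting of the counting is not given in the sources used here, so reads there could be shared.

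HAPLN1, which clamps lecticans onto hyaluronan, was called in E42 Posterior alone. The E77 Frontal series had 2.69, 1.28 and 1.30 RPKM in the stem phase, 0.714, 0.689 and 0.690 RPKM in the transition, and 1.02, 0.990, 0.851 and 0.958 RPKM in the terminal phase. E77 Occipital had 1.24, 0.443 and 0.380 RPKM, 0.231, 0.177 and 0.195 RPKM, and 0.399, 0.300, 0.325 and 0.414 RPKM. The terminal libraries lay below the stem range in E77 Frontal and overlapped it in E77 Occipital. In E42 Posterior the terminal libraries lay above the others, with 0.131, 0.0552 and 0.140 RPKM, then 0.161, 0.250 and 0.212 RPKM, and then 0.582, 1.23 and 1.07 RPKM. E42 Anterior ranged from 0.264 to 0.937 RPKM with overlap between all phases.

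HAPLN1 rose in the terminal phase of E42 Posterior by 3.12 ± 0.45 (log2, adjusted p = 3.7e-06). It missed the threshold in E77 Frontal (-0.81 ± 0.36, adjusted p = 0.0711) and E77 Occipital (-0.89 ± 0.38, adjusted p = 0.0594). Both rested on single stem libraries. Without day 1 the values were -0.35 in E77 Frontal (adjusted p = 0.523) and -0.14 in E77 Occipital (adjusted p = 0.807). Both passed without another stem library: day 3 in E77 Frontal (-1.02, adjusted p = 0.0472), and day 3 or day 5 in E77 Occipital (-1.14 and -1.204, highest adjusted p 0.0335). In E42 Anterior the change was 0.25 ± 0.40 (adjusted p = 0.674). RefSeq places 2 pseudogenes within HAPLN1, and its counts are the lowest of the 8 genes together with those of ACAN.

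CSPG5 rose in both E77 series and did not pass edgeR's test on all libraries in either E42 series. It had 37.0, 31.8 and 31.4 RPKM in the stem phase of E77 Occipital, 38.6, 38.8 and 35.2 RPKM in the transition, and 47.0, 60.8, 56.9 and 59.1 RPKM in the terminal phase. In E77 Frontal the values were 20.2, 18.5 and 21.7 RPKM, 27.3, 34.2 and 28.1 RPKM, and 32.8, 26.9, 39.8 and 38.9 RPKM. CSPG5 rose by 0.79 ± 0.16 in E77 Occipital (log2, adjusted p = 2.8e-04) and by 0.85 ± 0.16 in E77 Frontal (adjusted p = 1.1e-04). At E42 it had 16.6, 15.2 and 15.3 RPKM in the Anterior terminal phase, against 13.4, 8.99 and 13.1 RPKM in the stem phase (0.34 ± 0.17, adjusted p = 0.135). The Posterior terminal libraries had 15.7, 16.0 and 16.9 RPKM, against 18.5, 20.3 and 23.0 RPKM in the stem phase (-0.36 ± 0.17, adjusted p = 0.103). The E42 groups did not overlap in either region but lay in opposite orders. The Anterior rise passed with limma on log2(RPKM + 1) (0.40, adjusted p = 0.0415) and on log2(RPKM + 0.1) (0.43, adjusted p = 0.0369). The Posterior fall passed in edgeR with only the libraries compared in the fit (-0.38, adjusted p = 0.0196).

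Each lectican gene lies next to a link protein gene in the RefSeq annotation: BCAN by HAPLN2, NCAN by HAPLN4, VCAN by HAPLN1 and ACAN by HAPLN3. HAPLN2, known from nodes of Ranvier, was higher in the terminal phase on average (log2 4.03 ± 0.51, adjusted p = 5.3e-08), as was BCAN. HAPLN4, a brain link protein, was lower (-0.78 ± 0.16, adjusted p = 9.0e-05) where NCAN was higher. HAPLN3 was lower as well (-0.53 ± 0.09, adjusted p = 4.7e-06). HAPLN2 had 1.95 RPKM in E77 Frontal and 6.09 RPKM in E77 Occipital on day 20, and was listed at 0 counts on day 1 in both. HAPLN3, with 2.39 to 10.9 RPKM over the libraries, was the most abundant link protein transcript on every day and in every series.

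Set against the stem phase, the transition had 4 members higher and 2 lower, where 41.6% of all tested genes were called (21.6% higher and 20% lower). NCAN (log2 1.03 ± 0.19, adjusted p = 9.4e-05), TNR (0.94 ± 0.21, adjusted p = 6.6e-04), BCAN (0.50 ± 0.13, adjusted p = 0.0021) and CSPG5 (0.28 ± 0.09, adjusted p = 0.00942) rose. ACAN (-1.14 ± 0.46, adjusted p = 0.0455) and CSPG4 (-0.63 ± 0.24, adjusted p = 0.0329) fell, and without E42 Anterior neither passed (-0.29 and -0.02), nor did CSPG5 (0.18), while HAPLN1 did (-0.76). The ACAN call was also lost without any 1 of 14 libraries (log2 -1.19 to -0.62): E42 Anterior days 1, 7 and 8, E42 Posterior days 1, 6 and 8, E77 Frontal days 1, 3, 5, 6 and 8, and E77 Occipital days 1, 3 and 6. The CSPG4 call was lost without any 1 of 9 (-0.62 to -0.55): E42 Anterior day 8, E42 Posterior days 3, 6 and 8, E77 Frontal days 5 and 8, and E77 Occipital days 3, 6 and 7. HAPLN1 (-0.50 ± 0.21, adjusted p = 0.0584) passed without any 1 of 8 (-0.61 to -0.54): E42 Anterior days 1, 6 and 7, E42 Posterior day 3, E77 Frontal days 3 and 5, and E77 Occipital days 3 and 5.

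From the transition to the terminal phase 6 members rose and 0 fell, with 41.9% of all tested genes called (22.7% higher and 19.2% lower). TNR rose by 1.46 ± 0.20 (log2, adjusted p = 1.3e-06), HAPLN1 by 0.91 ± 0.20 (adjusted p = 5.2e-04), CSPG4 by 0.76 ± 0.23 (adjusted p = 0.00984) and BCAN by 0.55 ± 0.12 (adjusted p = 7.4e-04). VCAN rose by 0.35 ± 0.05 (adjusted p = 7.3e-06). NCAN rose by 0.49 ± 0.19 (adjusted p = 0.0355), a call lost without any 1 of 15 libraries (0.43 to 0.48): E42 Anterior days 6, 8, 11, 14 and 17, E42 Posterior days 8, 11 and 17, E77 Frontal days 6, 8, 17 and 20, and E77 Occipital days 7, 8 and 20. ACAN (0.999 ± 0.44, adjusted p = 0.0687) passed without E42 Anterior day 6 or E77 Frontal day 11 (1.21 and 1.06), and without the whole E42 Anterior series (2.12), as did CSPG5 (0.25, against 0.13 ± 0.08, adjusted p = 0.234, with it). With 1 value per day in place of 1 per library, some calls of these phase comparisons were lost. The calls of CSPG5 (0.28, adjusted p = 0.0683), ACAN (-0.93, adjusted p = 0.169) and CSPG4 (-0.66, adjusted p = 0.0968) were lost between transition and stem phase. Those of BCAN (0.47, adjusted p = 0.0769), NCAN (0.40, adjusted p = 0.375) and CSPG4 (0.58, adjusted p = 0.155) were lost between terminal phase and transition.

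Single days gave fewer calls. Between day 6 and day 5, the first day without FGF2 and the last day with it, 0 of the 8 genes passed edgeR's test, 0 had an unadjusted p under 0.05, and 0 passed with DESeq2 or limma. Only 0.457% of all tested genes were called there. Between day 17 and day 11 0 of 8 passed with any of the 3 tools, where 2.99% of all tested genes were called. TNR alone had an unadjusted p under 0.05 (log2 0.84 ± 0.34, adjusted p = 0.163).

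The second question was how the cultures of the older cortex differed from those of the younger one. In the stem phase 4 members were higher and 3 lower at E77 than at E42, where 60.2% of all tested genes were called (28.8% higher and 31.4% lower). TNR (log2 1.92 ± 0.20, adjusted p = 3.4e-08), HAPLN1 (1.91 ± 0.31, adjusted p = 1.1e-05), BCAN (0.66 ± 0.14, adjusted p = 1.9e-04) and CSPG5 (0.63 ± 0.11, adjusted p = 3.2e-05) were higher. ACAN (-4.25 ± 0.51, adjusted p = 4.0e-07), CSPG4 (-1.29 ± 0.26, adjusted p = 2.3e-04) and VCAN (-0.83 ± 0.07, adjusted p = 1.1e-10) were lower. TNR averaged 6.44 ± 5.29 RPKM in E77 stem libraries and 1.31 ± 0.87 RPKM in E42 stem libraries, and ACAN 0.107 ± 0.056 and 11.6 ± 18.3 RPKM (SD, n = 6 each). Libraries of the 2 ages overlapped for all 8 genes in this phase.

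The transition had 3 members higher and 1 lower at E77, against 56.8% of all tested genes called (25.7% higher and 31.1% lower). TNR (log2 2.06 ± 0.19, adjusted p = 6.4e-09), BCAN (1.07 ± 0.14, adjusted p = 4.9e-07) and CSPG5 (0.72 ± 0.11, adjusted p = 6.4e-06) were higher and VCAN lower (-0.47 ± 0.07, adjusted p = 1.6e-06), though VCAN was at 0.17 and did not pass with E77 Occipital set against E42 Posterior alone. CSPG4 (0.45 ± 0.26, adjusted p = 0.151) passed without E42 Anterior day 6 (0.73, adjusted p = 0.0181).

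By the terminal phase 6 members were higher at E77 and 0 were lower, where 45% of all tested genes were called (20.6% higher and 24.4% lower). CSPG4 (log2 3.05 ± 0.28, adjusted p = 8.8e-09), TNR (2.86 ± 0.19, adjusted p = 2.6e-11) and ACAN (2.69 ± 0.45, adjusted p = 4.3e-05) differed most. BCAN (1.78 ± 0.14, adjusted p = 1.6e-10), CSPG5 (1.38 ± 0.11, adjusted p = 2.1e-10) and NCAN (0.61 ± 0.14, adjusted p = 0.00107) were higher by less. All E77 libraries lay above all E42 libraries for BCAN, TNR, CSPG4 and CSPG5. TNR averaged 41.6 ± 28.2 RPKM at E77 and 3.74 ± 1.11 RPKM at E42, and CSPG4 15.1 ± 11.03 and 1.16 ± 0.38 RPKM (SD, n = 8 and n = 6). VCAN (-0.03 ± 0.07, adjusted p = 0.71) and HAPLN1 (-0.57 ± 0.28, adjusted p = 0.1) did not pass. The median log2 difference was 1.58 over the 8 genes and -0.02 over all tested genes. The oligodendrocyte lineage markers summed to between 113 and 1033 RPKM in E77 and between 35.8 and 95.8 RPKM in E42 terminal libraries. In the same libraries the 7 astrocyte markers summed to between 1412 and 2998 RPKM at E77 and between 670 and 1019 RPKM at E42. The part of either list was not tested.

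**Figure D5:**
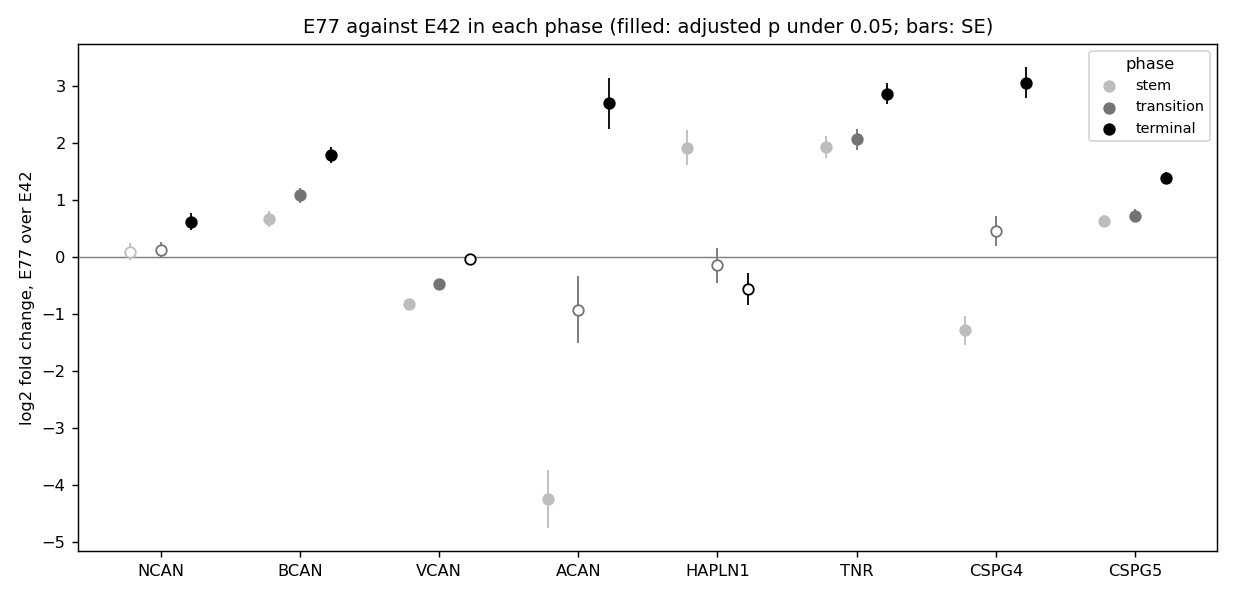
Log2 fold change of E77 over E42 for each gene in the stem, transition and terminal phases, with the SE as bars and filled symbols where the adjusted p was under 0.05. ACAN stands at -4.25 in the stem and 2.69 in the terminal phase, CSPG4 at -1.29 and 3.05, and TNR and BCAN lie above 0 in all 3 phases.

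The age difference was also taken within each pair of regions. E77 Frontal against E42 Anterior, and E77 Occipital against E42 Posterior, gave the following pairs of stem values. ACAN stood at -7.26 (log2, adjusted p = 4.7e-09) in the first pair and -1.23 (adjusted p = 0.257) in the second, and CSPG4 at -3.30 (adjusted p = 3.6e-07) and 0.71 (adjusted p = 0.128). VCAN stood at -1.58 (adjusted p = 7.9e-13) and -0.08 (adjusted p = 0.503), and BCAN at 0.20 (adjusted p = 0.397) and 1.13 (adjusted p = 5.5e-05). The lower stem levels of ACAN, CSPG4 and VCAN at E77 thus passed in the pair of E77 Frontal and E42 Anterior and not in the other pair. E42 Anterior is the series with the fibroblast and pericyte markers given above, and their part was not tested. VCAN averaged 45.7 RPKM in E77 Frontal and 90.5 RPKM in E77 Occipital stem libraries. In the E42 Anterior and E42 Posterior stem libraries it averaged 117 and 94.7 RPKM. In the transition ACAN passed in both pairs with opposite signs, at -4.47 (adjusted p = 1.0e-05) and 2.61 (adjusted p = 0.012), and VCAN stood at -1.11 (adjusted p = 7.7e-10) and 0.17 (adjusted p = 0.14). In the terminal phase VCAN passed in both pairs with opposite signs, at -0.56 (adjusted p = 1.5e-05) and 0.50 (adjusted p = 9.7e-05). NCAN (0.25 and 0.98), ACAN (0.28 and 5.09) and HAPLN1 (0.26 and -1.41) passed in the second pair and not in the first, and the difference between pairs was not tested. TNR was called higher at E77 in both pairs in all 3 phases (lowest 1.06, highest 3.53).

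Tests of the difference itself found that the terminal over stem change was larger at E77 for 6 members and smaller for 1, where 26.2% of all tested genes were called (13% larger and 13.2% smaller). The differences were 6.94 ± 0.68 for ACAN (log2, adjusted p = 3.1e-07), 4.34 ± 0.38 for CSPG4 (adjusted p = 7.7e-08), 1.11 ± 0.19 for BCAN (adjusted p = 1.6e-04) and 0.94 ± 0.26 for TNR (adjusted p = 0.0118). VCAN (0.80 ± 0.09, adjusted p = 9.5e-07) and CSPG5 (0.76 ± 0.16, adjusted p = 9.0e-04) were also positive. HAPLN1 was negative, at -2.48 ± 0.42 (adjusted p = 1.2e-04). The same 7 genes passed with the E42 Anterior and E77 Frontal series left out of the comparison, though not of the fit. The values were 6.32 for ACAN, 3.70 for CSPG4, 0.83 for BCAN, 1.11 for TNR, 0.58 for VCAN, 1.08 for CSPG5 and -4.00 for HAPLN1. NCAN was at 0.53 ± 0.20 (adjusted p = 0.0576) and passed without any 1 of 9 libraries (0.58 to 0.67): E42 Anterior days 3, 5 and 11, E42 Posterior days 5 and 11, E77 Frontal days 5 and 14, and E77 Occipital days 3 and 11. The oligodendrocyte lineage markers moved with these genes, 7 of 8 having a larger change at E77 and 0 a smaller one, and their part in the result was not tested.

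The third question was whether the regions of one age differed. At E77 6 members were lower and 1 was higher in Frontal than in Occipital cultures over all days, with 30.1% of all tested genes called (13.8% lower and 16.3% higher). TNR (log2 -2.25 ± 0.14, adjusted p = 3.8e-11), BCAN (-1.46 ± 0.11, adjusted p = 8.9e-11), NCAN (-1.13 ± 0.11, adjusted p = 1.7e-08) and VCAN (-0.83 ± 0.05, adjusted p = 2.5e-12) were lower in Frontal cultures on 10 of 10 days. CSPG5 was lower on 10 of 10 days too (-0.62 ± 0.09, adjusted p = 2.6e-06), and CSPG4 on 8 of 10 (-0.92 ± 0.20, adjusted p = 0.00123). HAPLN1 was higher in Frontal cultures on 10 of 10 days (1.503 ± 0.23, adjusted p = 1.2e-05). The median over the 8 genes was -0.87 and that over all tested genes -0.01.

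The stem phase at E77 gave 5 lower and 1 higher, against 22.7% of all tested genes called. TNR stood at -2.72 ± 0.27 (log2, adjusted p = 1.6e-07), BCAN stood at -2.22 ± 0.20 (adjusted p = 1.5e-08) and NCAN at -1.87 ± 0.21 (adjusted p = 3.4e-07). HAPLN1 was higher (1.33 ± 0.39, adjusted p = 0.0149), a call lost without Frontal day 1 or Occipital day 3 or 5 (0.94 to 1.24), while without Occipital day 1 it was 1.95. In the terminal phase all 8 passed, 7 lower and 1 higher in Frontal cultures, against 13.6% of all tested genes (5.67% lower and 7.93% higher). CSPG4 (-1.84 ± 0.31, adjusted p = 2.0e-04) and ACAN (-1.88 ± 0.42, adjusted p = 0.00326) were lower together with TNR (-1.75 ± 0.22, adjusted p = 3.8e-06). NCAN (-0.88 ± 0.18, adjusted p = 8.1e-04) did not pass without the day block (-0.85, adjusted p = 0.141). Oligodendrocyte lineage markers summed to 113 to 383 RPKM in the Frontal and 357 to 1033 RPKM in the Occipital terminal libraries, and their part was not tested.

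The terminal over stem change was larger in Frontal than in Occipital cultures for BCAN (difference 1.29 ± 0.25, adjusted p = 0.0027) and NCAN (0.99 ± 0.27, adjusted p = 0.0286), where 5.64% of all tested genes were called. BCAN averaged 217 ± 67.8 RPKM in the terminal and 46.6 ± 20.7 RPKM in the stem phase of E77 Frontal, and 397 ± 71.7 and 200.0 ± 37.3 RPKM in E77 Occipital (SD, n = 4 and n = 3). Neither call held without the day block (BCAN 1.26, adjusted p = 0.0517, and NCAN 0.85, adjusted p = 0.539). The NCAN call was also lost without Frontal day 1, 3, 17 or 20 or Occipital day 3, 11, 17 or 20 (0.70 to 1.03). VCAN (0.40 ± 0.12, adjusted p = 0.0576) passed without Frontal day 5 or 11 (0.45 and 0.44), ACAN (-3.16 ± 0.996, adjusted p = 0.0661) without Frontal day 1 (-4.10), and CSPG4 (-1.57 ± 0.48, adjusted p = 0.0574) without Frontal day 17 (-1.78).

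At E42 4 members were higher and 2 lower in Anterior than in Posterior cultures over all days, against 55.3% of all tested genes called (25.1% higher and 30.3% lower). All 5 fibroblast markers and 4 of the 6 pericyte and mural markers were higher in Anterior cultures too. The fibroblast markers summed to between 2840 and 6984 RPKM in Anterior and between 7.27 and 56.0 RPKM in Posterior libraries, and the mural markers to between 32.3 and 1524 RPKM and between 9.40 and 40.1 RPKM. No marker of either list was at 0 counts throughout a group, and their part in the regional differences was not tested. ACAN (log2 5.21 ± 0.38, adjusted p = 1.2e-10), CSPG4 (2.14 ± 0.22, adjusted p = 3.7e-08) and VCAN (0.46 ± 0.05, adjusted p = 7.2e-08) were higher in Anterior cultures on 9 of 9 days. HAPLN1 was higher on 7 of 9 (1.44 ± 0.24, adjusted p = 2.0e-05). BCAN was lower on 9 of 9 days (-0.84 ± 0.11, adjusted p = 5.2e-07) and TNR on 8 of 9 (-0.80 ± 0.16, adjusted p = 1.5e-04). NCAN (-0.19 ± 0.12, adjusted p = 0.173) passed without Anterior day 1 (-0.27), and CSPG5 (-0.18 ± 0.09, adjusted p = 0.0845) without Anterior day 8 or Posterior day 1 or 8 (-0.23).

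All 8 genes differed between the E42 regions in the stem phase, 4 in each direction, where 35.5% of all tested genes were called. The largest differences were those of ACAN (7.31 ± 0.60, adjusted p = 2.6e-09; 8.40 without Posterior day 1) and CSPG4 (3.75 ± 0.39, adjusted p = 9.2e-08). HAPLN1 was higher in Anterior cultures (2.70 ± 0.46, adjusted p = 4.5e-05; 3.36 without Anterior day 1 and 2.11 without Anterior day 5). NCAN was lower (-0.75 ± 0.20, adjusted p = 0.00496), and did not pass without Anterior day 3 (-0.49, adjusted p = 0.0841) or without the day block (-0.77, adjusted p = 0.149). In the terminal phase 3 passed, against 35.8% of all tested genes: ACAN higher (2.93 ± 0.76, adjusted p = 0.00429; 2.30 without Anterior day 11), VCAN higher (0.41 ± 0.09, adjusted p = 0.00112) and BCAN lower (-0.57 ± 0.19, adjusted p = 0.0207). The BCAN call was lost without Anterior day 14 or 17 or Posterior day 11 (-0.52 to -0.39) and without the day block (-0.57, adjusted p = 0.102).

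The E42 regions differed in the terminal over stem change of 5 members, where 11.7% of all tested genes were called. The Anterior minus Posterior difference was -4.38 ± 1.20 for ACAN (log2, adjusted p = 0.0194), -2.98 ± 0.60 for HAPLN1 (adjusted p = 0.00157), -2.85 ± 0.54 for CSPG4 (adjusted p = 0.00117), 1.33 ± 0.39 for TNR (adjusted p = 0.0276) and 0.71 ± 0.22 for CSPG5 (adjusted p = 0.0355). Without the day block ACAN (-4.34, adjusted p = 0.0561), TNR (1.21, adjusted p = 0.288) and CSPG5 (0.69, adjusted p = 0.0986) did not pass. ACAN lost its call without Posterior day 11 or 17 (-4.31 and -4.23) and stood at -5.00 and -5.47 without Anterior day 11 or Posterior day 1. TNR lost it without Anterior day 3 or 11 or Posterior day 3, 14 or 17 (1.06 to 1.35), and CSPG5 without those or Posterior day 5 (0.59 to 0.71). HAPLN1 stood at -3.62 and -2.36 without Anterior day 1 or 5. BCAN (0.72 ± 0.27, adjusted p = 0.0859) passed without Anterior day 1 or Posterior day 11 (0.97 and 0.92), and NCAN (0.60 ± 0.29, adjusted p = 0.196) without Anterior day 1 (0.91).

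Ordered by group mean, the E77 Occipital terminal group was first of the 12 groups for NCAN, BCAN, VCAN, TNR, CSPG4 and CSPG5. ACAN was highest in the E42 Anterior stem group and HAPLN1 in the E77 Frontal stem group. Of the 11 pairs of neighbours in each order, the libraries overlapped in 6 for TNR, 8 each for BCAN, VCAN, HAPLN1 and CSPG5, 10 each for NCAN and ACAN, and all 11 for CSPG4. The E77 Occipital terminal libraries stood apart from the next group for BCAN and CSPG5 only.

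The genes with the most similar pattern were found by Pearson's r of log2 CPM over the 38 libraries, among 11744 named genes with a mean of at least 5 CPM. BCAN was nearest to OMG, an oligodendrocyte and neuronal glycoprotein (r = 0.964), and then to TNR (r = 0.957) and DIPK1C (r = 0.928). TNR was in turn nearest to BCAN and then LHFPL3 (r = 0.954) and OMG (r = 0.945), and CSPG5 was nearest to TNR (r = 0.915), OMG (r = 0.910) and DNER (r = 0.903). NCAN was nearest to NDRG2 (r = 0.945), MTURN (r = 0.927) and B3GAT1, which makes the HNK-1 carbohydrate (r = 0.907). VCAN's nearest were SPPL3 (r = 0.894), LTBP4 (r = 0.859) and AMER1 (r = 0.852). ACAN's nearest were the signalling ligand BMP4 (r = 0.862), CNN2 (r = 0.859) and PQLC3 (r = 0.846). CSPG4 was nearest to SEPTIN8 (r = 0.883), FADS3 (r = 0.880) and ZNF469 (r = 0.863), and HAPLN1 to PRICKLE2 (r = 0.847), ZBTB38 (r = 0.781) and ADAMTS14 (r = 0.770). These correlations share series, day and phase, and describe the 38 libraries only.

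The rest of the matrix pathway was counted in the terminal against stem comparison averaged over the series, in which 62.4% of all tested genes were called (31.9% higher and 30.4% lower). Of 9 other link proteins and net partners 2 rose and 7 fell, among them TNC, the tenascin of the embryonic matrix (log2 -2.05 ± 0.20, adjusted p = 3.6e-10), and LAYN, a hyaluronan receptor (-1.98 ± 0.20, adjusted p = 6.8e-10). TNC and its relative TNR thus changed in opposite directions. Of 20 chondroitin sulfate synthesis genes 6 rose, 9 fell and 5 did not pass, a called share near that of all tested genes. The polymerising enzyme gene CHSY3 rose (2.00 ± 0.15, adjusted p = 1.0e-12), and the sulfotransferase genes CHST7 (-1.66 ± 0.23, adjusted p = 2.7e-07) and CHST14 (-1.13 ± 0.09, adjusted p = 8.7e-12) fell. Of 13 lectican-cleaving proteases and their inhibitors 3 rose, 6 fell and 4 did not pass, which is also near that share. The aggrecanase genes ADAMTS4 (-1.55 ± 0.29, adjusted p = 3.0e-05) and ADAMTS5 (-1.46 ± 0.43, adjusted p = 0.0039) fell and ADAMTS20 rose (2.12 ± 0.44, adjusted p = 1.3e-04).

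Among 7 hyaluronan enzymes 1 rose, 3 fell and 3 did not pass, again near the 62.4% called among all tested genes. CEMIP, which degrades hyaluronan, rose (log2 1.82 ± 0.31, adjusted p = 7.3e-06), and HYAL3 (-0.69 ± 0.22, adjusted p = 0.00729) and CEMIP2 (-0.54 ± 0.16, adjusted p = 0.00472) fell. Of 5 genes from the families of chondroitin sulfate receptors 4 rose, 0 fell and 1 did not pass. RTN4RL2 (1.73 ± 0.28, adjusted p = 3.2e-06) and RTN4RL1 (0.93 ± 0.28, adjusted p = 0.00522), both of the Nogo receptor family, rose more than the phosphatase gene PTPRF (0.25 ± 0.06, adjusted p = 8.4e-04). All 3 testicans, secreted proteoglycans outside the lectican family, passed: SPOCK3 (3.81 ± 0.43, adjusted p = 9.8e-09) and SPOCK1 (3.25 ± 0.23, adjusted p = 9.5e-13) rose and SPOCK2 fell (-0.53 ± 0.13, adjusted p = 8.4e-04). At E42, 11 of the 13 proteases and inhibitors and 14 of the 20 synthesis genes were higher in Anterior than in Posterior cultures over all days, and 0 and 3 were lower, where 25.1% of all tested genes were higher and 30.3% lower. The fibroblast markers, at 2840 to 6984 RPKM in Anterior and at most 56.0 RPKM in Posterior libraries, moved with these lists, and their part was not tested.

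The cells that perineuronal nets surround were looked for by their markers. PVALB, the parvalbumin gene, was at 0 counts in all 10 E77 Occipital libraries, in all E77 Frontal stem and terminal libraries and in all E42 Posterior stem libraries, and its highest level anywhere was 0.656 RPKM. LHX6, another marker on the parvalbumin interneuron list, was at 0 counts in all E42 Anterior terminal and all E42 Posterior transition libraries. Of the 7 markers on that list 5 could be tested, and all 5 rose in the terminal phase on average. There 31.9% of all tested genes were called higher. Whether parvalbumin interneurons carried these 5 markers was not tested. The 4 microglia markers summed to at most 0.958 RPKM.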

How the data were processed

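Strand-specific poly(A) RNA-seq libraries, 1 per series and day in vitro (38 in all), were analysed from a table of gene counts and a table of RPKM deposited by the authors. Reads were aligned with STAR and counted with featureCounts, per the submitters' processing notes. The genome build, annotation and strand setting are not given in the sources used here. The deposited RPKM values are counts divided by library total and gene length, checked for 16437 genes (ratio constant within 0.00556%). Of 703 pairs of libraries none agreed within sampling noise.

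Counts were tested with edgeR 4.0.16 in R 4.3.3 (TMM factors 0.899 to 1.104, filterByExpr over 12 groups, quasi-likelihood F tests, Benjamini-Hochberg adjustment over 20794 genes, threshold 0.05). Phases were compared on group means (26 residual degrees of freedom), ages and regions with day in vitro as a block (19) and single days on series plus day (25), giving 22 comparisons. Day in vitro comes from the labels and pairs the libraries: same-day libraries had correlated deviations above 0.1 in 44 of 55 pairs (median 0.22, lowest -0.10). The edgeR fit was tested on simulated data.

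Named were the 8 genes, the 3 genes of each pathway list with the largest called changes in the averaged terminal against stem comparison, and the 3 nearest patterns of each member. HAPLN3, HAPLN4 and the markers SOX10, PDGFRB, COL1A1 and PVALB were named outside that rule, after their values were seen. The members and lists were chosen with earlier results of these data known. Alternatives were DESeq2 1.42.0, limma 3.58.1 on log2(RPKM + 1) or log2(RPKM + 0.1), other scaling, no low-count filter, fits without the block, and fits leaving out a library or day. Where a series was left out, it was left out of the comparison only, and the fit still held all 38 libraries. The age difference in change without E42 Anterior and E77 Frontal was added after seeing the data. At totals of 20149635 to 56363300 counts, ACAN and HAPLN1 were the least precise.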

Additional observations from a re-analysis of the deposited data

Results flagged for a closer look

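BCAN in the terminal phase of E77 Occipital had 1 library apart from the rest: day 11 stood at 291 RPKM against 422 to 448 RPKM on the other days, a gap of 0.838 of the group's range. The rule marks about 1 in 20 groups of interchangeable libraries by chance. These libraries are ordered days, and day 11 is the earliest of them, so that rate does not apply here. BCAN had 235 to 249 RPKM in the transition of this series. The 16 groups examined were the 8 genes in the E77 Frontal and E77 Occipital terminal libraries, and are not independent.

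The terminal over stem change differed between the ages, E77 minus E42 on the log2 scale, by 6.94 for ACAN, 4.34 for CSPG4, 1.11 for BCAN, 0.94 for TNR, 0.80 for VCAN, 0.76 for CSPG5 and -2.48 for HAPLN1. Between the E42 regions, Anterior minus Posterior, it differed by -4.38 for ACAN, -2.98 for HAPLN1, -2.85 for CSPG4, 1.33 for TNR and 0.71 for CSPG5. Between the E77 regions, Frontal minus Occipital, it differed by 1.29 for BCAN and 0.99 for NCAN. These 14 of 24 tests of a difference passed.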

How the results depend on the processing

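Of 3575 recomputed log2 values 3367 kept their side of the threshold, 116 lost a call and 87 gained one. Among the 3367 are 69 that changed sign without being called in either setting. In 5 others the sign turned where one of the settings gave a call: ACAN in the averaged terminal against stem comparison without E42 Anterior (1.84) and, with E77 Occipital set against E42 Posterior alone, CSPG4 in the stem phase (0.71), VCAN (0.17) and ACAN (2.61) in the transition and VCAN in the terminal phase (0.50). The cause was not tested.

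The number of the 8 genes called moved beyond 1.5 times as follows. In E42 Posterior, terminal against stem, it was 2, but 1 with no low-count filter, 1 without stem day 1 and 5 with only the libraries compared, with fewer samples in the fit. Both averaged comparisons with the transition had 6, and 3 with 1 value per day. The E42 regional difference in change had 5, and 2 with no replicate block. The E77 one had 2, but 1 with no low-count filter, 1 without stem day 1, 1 without terminal day 20, 6 with DESeq2, 4 with limma on log2(RPKM + 0.1) and 0 with no replicate block. With 1 library left out these counts ran from 1 to 2, 4 to 7, 5 to 7, 2 to 7 and 1 to 3. Over all tested genes, the E77 regional difference in change gave 561 higher and 611 lower of 20794. It gave 820 and 861 of 18375 with DESeq2, and 395 and 510 of 29990 with no filter. With limma on log2(RPKM + 0.1) it gave 528 and 631 of 17827. E42 Posterior, terminal against stem, gave 4479 and 3704 of 20794, and 3794 and 3950 of 29990 with no filter. With only the libraries compared it gave 4005 and 3676 of 18381. Those of the other settings are not given here. ACAN and HAPLN1 rest on as few as 6 and 11 reads.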
